A study of Mus musculus with 3 samples.

Results

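Plasmacytoid dendritic cells were 183 of the 20504 cells kept from mouse jaw tissue in 3 single-cell RNA libraries. A barcode was a member where it held at least 3 unique molecular identifiers (UMIs) of Siglech, at least 2 of Bst2 and Tcf4 together, at most 2 of the C1q genes C1qa, C1qb and C1qc, and at most 3 of Cd79a and Cd79b. It also had to hold at least 500 UMIs and 250 genes, with at most 15% of UMIs from mitochondrially encoded genes. The members were 29 of 8880 kept cells in Ctrl, 85 of 5127 in 1d and 69 of 6497 in 7d. All 3 groups were male wild-type C57BL/6 mice aged 10 weeks. Ctrl mice were not irradiated, while the head and neck of 1d and 7d mice received 10 Gy, and these mice were killed 1 and 7 days later. Cells of 8 mice were pooled in each library, and the tissue had been digested with collagenase II and the cells frozen and thawed. There was therefore 1 library per group, no test was possible between groups, and every 95% interval on a share or ratio between libraries covers counting error only.

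Plasmacytoid dendritic cells arise in bone marrow from myeloid and lymphoid precursors and depend on the transcription factor Tcf4 (E2-2), which binds E-box motifs. They sense nucleic acids in endosomes through Tlr7 and Tlr9, and are known for secreting large amounts of type I interferon. At rest they carry little antigen-presenting machinery compared with conventional dendritic cells, keep a large endoplasmic reticulum, and in mice express the surface lectin Siglech, the tetherin Bst2 and the gut-homing chemokine receptor Ccr9. Conventional dendritic cells instead present antigen on MHC class II to T cells, and B cells share an early lymphoid programme with plasmacytoid dendritic cells.

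The sequences before the start sites of 4 genes that were higher than in conventional dendritic cells are shown first. These 4 had the largest differences from conventional dendritic cells among genes with a window in the RefSeq table. Each is shown as the 250 bases that end just before the RefSeq start, in GRCm38.p6. Capitals mark the E-box CAGGTG, or CACCTG as its reverse complement. The windows are Dntt at chr19:41029025-41029274 (plus strand), Ccr9 at chr9:123766961-123767210 (plus strand), Mctp2 at chr7:72306596-72306845 (minus strand) and Pacsin1 at chr17:27684989-27685238 (plus strand).
Dntt: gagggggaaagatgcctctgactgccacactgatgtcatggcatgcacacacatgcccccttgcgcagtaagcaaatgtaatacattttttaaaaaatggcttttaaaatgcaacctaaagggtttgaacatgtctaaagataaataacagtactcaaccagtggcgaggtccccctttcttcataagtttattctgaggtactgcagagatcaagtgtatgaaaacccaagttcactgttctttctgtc
Ccr9: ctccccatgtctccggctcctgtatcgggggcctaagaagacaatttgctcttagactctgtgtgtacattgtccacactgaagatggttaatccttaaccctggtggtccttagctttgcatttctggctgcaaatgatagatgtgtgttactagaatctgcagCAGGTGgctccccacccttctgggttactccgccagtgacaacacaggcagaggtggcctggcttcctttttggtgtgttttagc
Mctp2: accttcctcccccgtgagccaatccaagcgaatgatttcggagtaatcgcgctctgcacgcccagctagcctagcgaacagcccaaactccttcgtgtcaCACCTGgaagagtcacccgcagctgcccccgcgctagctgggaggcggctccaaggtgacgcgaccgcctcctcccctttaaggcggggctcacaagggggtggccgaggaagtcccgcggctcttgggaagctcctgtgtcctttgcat
Pacsin1: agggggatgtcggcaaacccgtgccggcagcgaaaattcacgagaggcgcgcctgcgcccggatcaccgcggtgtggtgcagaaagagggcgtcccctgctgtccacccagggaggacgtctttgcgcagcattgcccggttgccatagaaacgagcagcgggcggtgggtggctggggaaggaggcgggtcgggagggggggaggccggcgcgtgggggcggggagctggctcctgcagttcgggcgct
The motif lay 85 bases before the start of Ccr9 and 150 bases before that of Mctp2, and the windows of Dntt and Pacsin1 did not hold these letters. Of the 25 identity genes with a window, 7 held it (28%), against 5252 of all 27025 genes with a window (19.4%). Of the 15 genes of the lymphoid programme with a window, 6 held it (40%). It was held by 2 of 10 MHC class II and costimulation genes (20%) and by 4 of 23 dendritic cell transcription factors (17.4%). These matches describe the letters of the windows.

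Depth differed between libraries. Members carried a median of 5608 UMIs in Ctrl, 6551 in 1d and 7356 in 7d, while all kept cells carried 2463, 5196 and 3935. Pairs of libraries shared 12 to 24 barcodes, and no member's barcode was a member in another library. A doublet caller marked 1, 2 and 6 members. Some members held RNA of another lineage: 5, 5 and 7 members in Ctrl, 1d and 7d had at least 1% of their UMIs in the neutrophil, erythroid, mesenchymal or progenitor marker lists. These mixed members held 26.4%, 20.02% and 16.8% of the members' UMIs. They meet the selection rule and stay in every main value, and results that move without them are given both ways. Without them the summed level of the 8 neutrophil markers was 505, 766 and 295 CPM (UMIs of a gene scaled to a total of 1000000), against 14019.6, 41731 and 9618 with them. The 7 erythroid markers summed to 358, 284 and 711 CPM without the mixed members and to 5031, 10412 and 25125 CPM with them.

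The label was checked against other genes. Ccr9 was the only one of the 4 markers that the selection did not use. After every member was thinned to 1500 UMIs, it was detected in 86.2% of members in Ctrl, 71.8% in 1d and 55.1% in 7d. These shares vary with the random draw: another draw gave 82.8%, 72.9% and 55.1%. In conventional dendritic cells, B cells, T cells and neutrophil-rich cells the thinned share was between 0 and 2.20% in every library. Cells of these classes with under 1500 UMIs were left out of it. Before thinning, 93.1%, 85.9% and 76.8% of members held a Ccr9 UMI. The neutrophil transcript S100a8, used as a measure of free RNA, was detected in 24.1%, 24.7% and 11.6% of thinned members and in 17.0%, 27.5% and 9.59% of thinned conventional dendritic cells. The median depths of those dendritic cells were 8265, 7582 and 5853 UMIs. Markers of T cells and B cells were low in members: the 7 T cell markers summed to 56.5, 19.6 and 60.7 CPM, and the 8 B cell markers to 127, 57.4 and 56.2 CPM. The B cell list includes Cd79a and Cd79b, which the selection capped, so its low sum was partly fixed beforehand. Myeloid lists were present. The 11 conventional dendritic cell markers summed to 1379, 1810.1 and 1162 CPM, with 8, 9 and 10 of them seen and Xcr1 at 0 in all libraries, and Cd209a was held by 20.7%, 21.2% and 14.5% of members. The 7 monocyte markers summed to 2207, 2289 and 1027 CPM. Of these sums Ly6c2, which is also one of the identity genes, gave 1657, 1002 and 630 CPM. The 7 NK cell markers, which are not a myeloid list, summed to 4.71, 14.3 and 121 CPM. Most members thus carried Ccr9. Of those that held no Ccr9 UMI, 2, 11 and 15 were not mixed and 0, 1 and 1 were, and the former had medians of 17834, 9413 and 8819 UMIs.

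Members near the limit differed from those further inside it. With 3 or 4 Siglech UMIs there were 5, 13 and 23 members in Ctrl, 1d and 7d, and with 5 or more there were 24, 72 and 46. Ccr9 was at 289, 388 and 302 CPM in the first set and at 3449.7, 2279.6 and 1148 CPM in the second. Cells with 2 Siglech UMIs that met every other limit numbered 5, 8 and 7, and had Ccr9 at 89.9, 807 and 329 CPM. The 7d library thus held a larger part of its members near the limit, and the Ccr9 level among members far from the limit was also lowest there.

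Plasmacytoid dendritic cells made up 0.327% of kept cells in Ctrl (exact binomial 95% interval 0.219 to 0.469%), 1.66% in 1d (1.33 to 2.05%) and 1.06% in 7d (0.827 to 1.34%). The share in 1d was 5.08 times that in Ctrl (3.30 to 8.03), and the share in 7d was 3.25 times that in Ctrl (2.08 to 5.21). Without the mixed members the ratios were 5.77 and 3.53. Conventional dendritic cells numbered 53, 51 and 147 by a comparable marker rule, so that there were 54.7, 167 and 46.9 plasmacytoid per 100 conventional dendritic cells. Per conventional dendritic cell the 1d ratio was 3.05 (1.98 to 4.82) and the 7d ratio was 0.858 (0.548 to 1.37). The interval of the latter held 1, and conventional dendritic cells themselves were 0.597% of kept cells in Ctrl and 2.26% in 7d. A share says nothing on absolute numbers, since other cells in the denominator also differed between libraries.

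**Figure D1:**
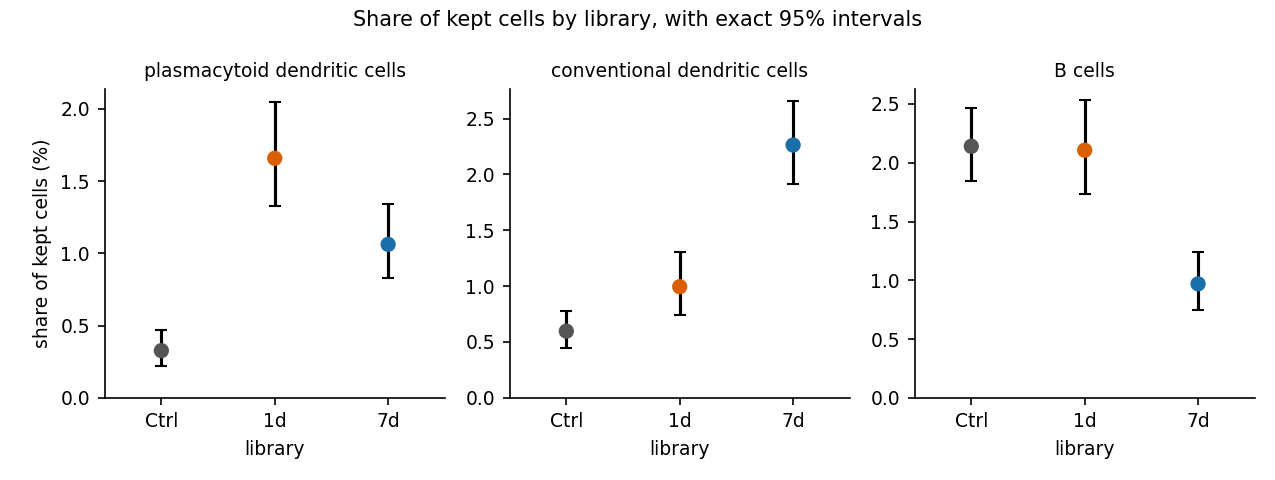
Share of kept cells (y axis, %) that were plasmacytoid dendritic cells, conventional dendritic cells and B cells in each library (x axis), with exact 95% binomial intervals as bars. Plasmacytoid dendritic cells were at 0.327% in Ctrl, 1.66% in 1d and 1.06% in 7d, while conventional dendritic cells were highest in 7d at 2.26%.

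The 251 conventional dendritic cells were chosen by MHC class II genes and at least 2 UMIs of Xcr1, Clec9a, Cd209a and Clec10a. Against them, summed per library and class, 498 genes were higher in plasmacytoid dendritic cells and 718 lower of 6158 tested (8.09% and 11.7%; edgeR quasi-likelihood test with library as a block, Benjamini-Hochberg adjusted p under 0.05, n = 3 libraries). The same cells gave the classes and the test, so genes that go with Siglech from cell to cell were bound to differ. Without the 1d library 293 genes were higher and 421 lower, without the 7d library 301 and 416, and DESeq2 on all 3 libraries gave 296 and 470. Of 33 identity genes tested, 26 were higher and 0 lower, with a median log2 fold change of 2.84, against 0.02 for all genes tested. Ly6d, a surface protein of lymphoid precursors, led with a log2 fold change of 11.02 ± 0.51 (SE, edgeR adjusted p = 1.1e-05). Each SE of a class contrast was the absolute log2 fold change divided by the square root of the test's F statistic. Dntt, the terminal transferase of early lymphocytes, followed at 9.28 ± 0.65 (edgeR adjusted p = 0.00019). In conventional dendritic cells of Ctrl, 1d and 7d, Ly6d had 0, 1 and 0 UMIs and Dntt had 0, 0 and 0. The sizes of these fold changes are therefore uncertain. Cox6a2, a cytochrome oxidase subunit, was higher by 8.62 ± 0.46, Ccr9 by 7.56 ± 0.33, Pacsin1, a membrane-trafficking adaptor, by 6.92 ± 0.61 and Atp1b1, a sodium pump subunit, by 5.96 ± 0.39. The other 7 did not pass, among them the endosomal nuclease Pld4 at 0.50 (edgeR adjusted p = 0.36) and the pore-forming Mpeg1 at 0.96 (edgeR adjusted p = 0.060). In GRCm38, Ly6d lies at chr15:74762056-74763620, Cox6a2 at chr7:128205435-128206387, Ccr9 at chr9:123678439-123784330 and Siglech at chr7:55768178-55778925.

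Among dendritic cell transcription factors, 11 of 27 tested were higher and 7 lower than in conventional dendritic cells. The Ets factor Spib was higher by 4.90 ± 0.34, the interferon regulatory factor Irf8 by 2.69 ± 0.27, Bcl11a by 2.49 ± 0.29 and Runx2 by 2.35 ± 0.28 on the log2 scale (each edgeR adjusted p at or under 0.00058). The factors of conventional dendritic cells were lower, with Batf3 at -4.95 ± 0.59, Zbtb46 at -3.49 ± 0.58 and Id2, an inhibitor of E proteins, at -1.79 ± 0.30. Of the lymphoid programme, 8 of 11 tested genes were higher and 0 lower. They included the B lymphoid kinase Blk at 7.76 ± 0.85, the adaptor Blnk at 3.51 ± 0.41 and the heavy chain constant gene Ighm at 3.16 ± 0.23. Of 10 MHC class II and costimulation genes that the choice of cells did not use, 0 were higher and 10 lower: the invariant chain Cd74 was at -4.01 ± 0.31, the costimulatory Cd86 at -3.65 ± 0.27 and Cd40 at -3.99 ± 0.39. The conventional dendritic cells had been chosen for MHC class II chains, so genes that go with these from cell to cell were bound to be lower. Of 18 interferon response genes tested, 2 were higher and 9 lower, with Isg15 at -2.71 ± 0.38. Among the genes with the largest differences, those lower in plasmacytoid dendritic cells were led by the survival gene Bcl2a1d at -5.75 ± 0.46, a member of a family of near-identical copies whose counts are uncertain.

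The B cells, 361 in all, were chosen by Cd79a, Cd79b, Ms4a1 and Ighd. Against them 789 genes were higher in plasmacytoid dendritic cells and 627 lower of 6032 tested (13.1% and 10.4%; edgeR), while DESeq2 gave 457 and 315. Of 32 identity genes, 29 were higher and 1, the Fc receptor-like Fcrla, lower at -1.62 ± 0.26. Ly6d was higher by only 1.16 ± 0.22 and Blnk did not differ beyond the test's threshold (0.50, edgeR adjusted p = 0.12). Of the lymphoid programme, 3 of 14 were higher and 9 lower. The B lineage regulators Pax5 and Ebf1 were at -7.40 ± 0.48 and -6.99 ± 0.59, and Il7r, the receptor for interleukin 7, was at 2.90 ± 0.36. Of 34 genes of the endoplasmic reticulum and secretion, 23 were higher and 0 lower, with a median of 1.01. Xbp1, which drives expansion of the secretory apparatus, was higher by 2.72 ± 0.25 and the translocon subunit Sec61b by 1.82 ± 0.19. Against conventional dendritic cells 4 of 35 of these genes were higher and 0 lower, Xbp1 by 1.91 ± 0.26. Inhibitory receptors were higher in 9 and lower in 3 of 16 tested genes against B cells, led by Klra17 at 7.61 ± 0.98 and the collagen receptor Lair1 at 7.04 ± 0.53. Klra17 had no UMI in B cells of any library, so the size of its fold change is uncertain.

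**Figure D2:**
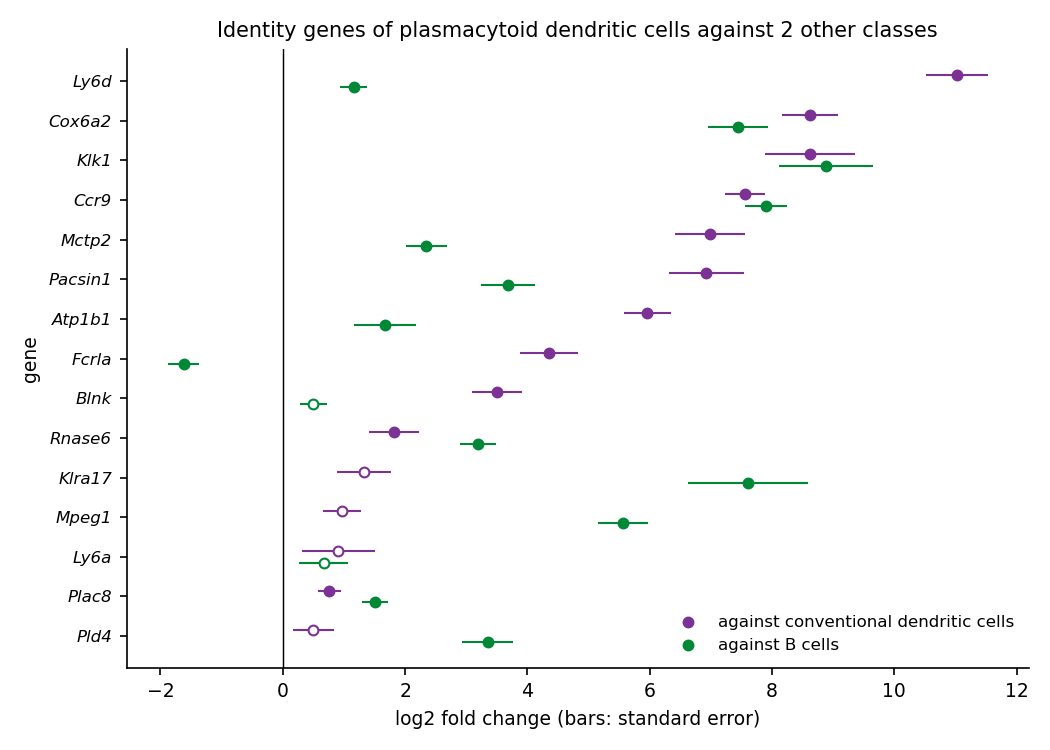
Log2 fold change (x axis) of the 15 identity genes named in the text (y axis) in plasmacytoid dendritic cells against conventional dendritic cells and against B cells. Bars are standard errors derived from the F statistic of the edgeR test. Filled points passed an edgeR adjusted p of 0.05 and open points did not. Ccr9 stood at 7.56 and 7.90 against the 2 classes, while Ly6d stood at 11.02 and 1.16.

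Between libraries, levels were summed over the members of each library and compared as ratios of CPM among genes with at least 30 UMIs in the pair. At 1d 6.42% of 4655 such genes were at least 2-fold higher than in Ctrl and 4.32% at least 2-fold lower. At 7d 8.62% of 4233 genes were at least 2-fold higher and 9.17% at least 2-fold lower. The median log2 ratio over all these genes was -0.07 at 1d and -0.08 at 7d, and trimmed-mean (TMM) scaling shifted every log2 ratio up by 0.13 and 0.19. Under that scaling 391 genes were at least 2-fold higher and 142 lower at 1d, against 299 and 201, and 506 and 270 at 7d, against 365 and 388. Lists below are described by their counts and medians against these values.

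Identity genes were lower at 7d. Of the 31 measured, 29 were below Ctrl (52.4% of all genes were) and 18 at least 2-fold lower, with a median log2 ratio of -1.08. At 1d 22 of 31 were below Ctrl (52.5% of all genes were) and 2 at least 2-fold lower, with a median of -0.45. Over the 3 libraries, 20 of 33 identity genes (60.6%) were ordered Ctrl, then 1d, then 7d from high to low, against 25% of 6120 genes. Without the mixed members the 7d median was -1.14, and without members over 12000 UMIs it was -0.78, with 9 genes at least 2-fold lower.

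Ccr9 stood at 2781 CPM in Ctrl, 1853 in 1d and 817 in 7d, which gave ratios to Ctrl of 0.666 (0.605 to 0.735) and 0.294 (0.261 to 0.330). Per member, the median was 30.4, 19.4 and 4.89 Ccr9 UMIs per 10000 UMIs, the highest member held 106, 97.2 and 57.7, and 2, 12 and 16 members held none. The ranges overlapped, and the 7d members lay mostly at the low end. Rnase6, a secreted ribonuclease, stood at 602, 535 and 135 CPM, so that it was close to Ctrl at 1d (0.888, 0.726 to 1.09) and low at 7d (0.224, 0.169 to 0.295). In conventional dendritic cells Rnase6 was at 65.5, 92.0 and 76.7 CPM and did not follow this order. The Sca-1 gene Ly6a was at 376, 80.9 and 22.2 CPM, with a 7d ratio of 0.0590 (0.0315 to 0.103). Ly6a was also lower in B cells, at 118, 69.1 and 46.7 CPM.

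The other identity genes differed in how far they stood from Ctrl. Atp1b1 was at 772, 494 and 237 CPM and Pacsin1 at 184, 107 and 57.7 CPM. Klk1, a kallikrein protease, was at 184, 99.1 and 35.5 CPM, and 1 Ctrl cell held 33% of its UMIs there. Cox6a2 was nearer to Ctrl at 1191, 875 and 565 CPM (7d ratio 0.475, 0.404 to 0.559), and Ly6d nearer still at 1948, 2009.7 and 1515 CPM (0.778, 0.693 to 0.874). Plac8, a small cysteine-rich protein, was higher at 7d, at 1718, 1869 and 2378 CPM, with a ratio of 1.38 (1.24 to 1.56). The other identity gene above Ctrl at 7d was Ppfia4, at 80.0, 139.5 and 91.8 CPM (1.15, 0.662 to 2.09). After thinning to 1500 UMIs, Cox6a2 was detected in 72.4%, 63.5% and 53.6% of members and Ly6d in 82.8%, 68.2% and 60.9%. Another draw gave 82.8%, 71.8% and 69.6% for Ly6d.

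**Figure D3:**
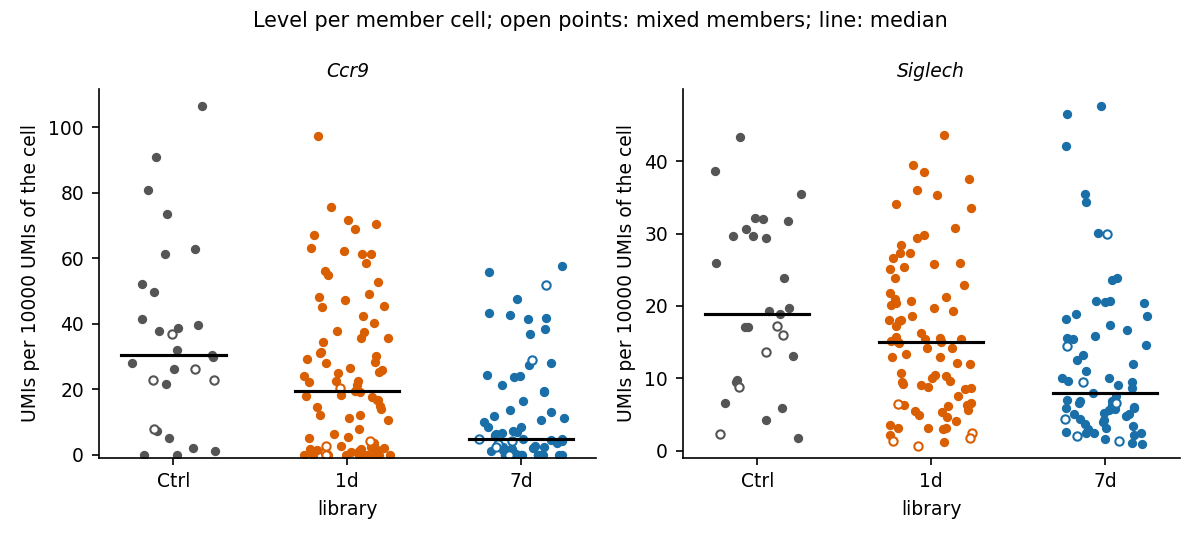
Ccr9 and Siglech UMIs per 10000 UMIs (y axes) of each member cell by library (x axis); open points are mixed members and lines are medians. The Ccr9 medians were 30.4 in Ctrl, 19.4 in 1d and 4.89 in 7d; Siglech, which chose the cells, is shown as a description.

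Transcription factors lay on both sides of Ctrl, and the list medians were -0.14 at 1d (0.08 without the mixed members) and -0.36 at 7d. Irf8 stood at 2155, 1921 and 1234 CPM (7d ratio 0.573, 0.510 to 0.643). Bcl11a, which acts with Tcf4 in plasmacytoid dendritic cells, was at 522, 420 and 135 CPM, with a 7d ratio of 0.258 (0.193 to 0.343). Zeb2 was at 584, 528 and 281 CPM and Ikzf1 at 504, 284 and 241 CPM. Spib was highest at 1d, at 193, 343 and 207 CPM (1d ratio 1.78, 1.28 to 2.53). Id2 was at 146, 143 and 279.7 CPM, with a 7d ratio of 1.92 (1.31 to 2.90), Mef2c at 442, 659 and 623 CPM, and Klf4 at 136, 194 and 297 CPM. Runx2 stayed between 267 and 303 CPM. Id2 was also higher at 7d in B cells (116, 136 and 486 CPM) and in all kept cells (371, 229 and 478 CPM), and not in conventional dendritic cells (442, 615 and 440.3 CPM). At 7d the factors lower than in Ctrl thus included Irf8 and Bcl11a, and those higher included Id2 and Klf4.

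Nucleic acid sensing genes lay near the background, with 12 of 19 below Ctrl at 1d and 12 of 17 at 7d and list medians of -0.24 and -0.29. Of 22 such genes, 4 (18.2%) were ordered Ctrl, 1d, 7d, against 25% of all genes. The RNA sensor Tlr7 was at 56.5, 84.8 and 20.7 CPM, and its 7d ratio was 0.367 (0.157 to 0.868). The DNA sensor Tlr9 had 0, 1 and 0 UMIs, so it could not be compared at this depth. Unc93b1, which carries these receptors to endosomes, was at 682, 576 and 481 CPM, and Pld4 at 602, 411 and 277 CPM. The asparagine endopeptidase Lgmn, which processes endosomal receptors, was highest at 1d, at 122, 296 and 82.9 CPM (1d ratio 2.42, 1.61 to 3.78).

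Interferon ligands were at or near 0. The 20 type I and III interferon genes gave 1 UMI in all, of Ifnl2 in 1d, among 212488, 766791 and 675741 UMIs of members. The interferon receptor and signalling list was lower at 7d (9 of 11 genes below Ctrl, median log2 ratio -0.60) and near the background at 1d (-0.21). The receptor gene Ifnar1 was at 245, 203 and 110 CPM (7d ratio 0.447, 0.310 to 0.651) and Ifnar2 at 386, 381 and 255 CPM. Stat2 and Irf9, which join in the interferon-stimulated complex, were at 127, 119 and 34.0 CPM and at 122, 97.8 and 41.4 CPM.

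Interferon response genes were highest at 1d. Of 15 measured over the 3 libraries, 11 were highest at 1d (73.3%), against 30.2% of all genes. At 1d 11 of 14 were above Ctrl (47.5% of all genes were) and 8 at least 2-fold higher, with a median log2 ratio of 1.15, and at 7d the median of 7 genes was -0.32. The antiviral Trim30a was at 127, 269 and 72.5 CPM (1d ratio 2.11, 1.41 to 3.29), Irf7 at 37.6, 93.9 and 23.7 CPM (2.49, 1.20 to 6.00) and Parp14 at 18.8, 78.2 and 5.92 CPM (4.16, 1.54 to 15.8). Trim30a in conventional dendritic cells was 1.10 times and in B cells 0.975 times its Ctrl level at 1d, and the difference between classes was not tested. Not every interferon-inducible gene shared this order: Ifi27l2a was at 984, 449 and 188 CPM (7d ratio 0.191, 0.152 to 0.239). Many of these genes rested on few Ctrl UMIs, such as 4 of Parp14, and such genes reached the minimum of 30 UMIs only where the other library was high.

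**Figure D4:**
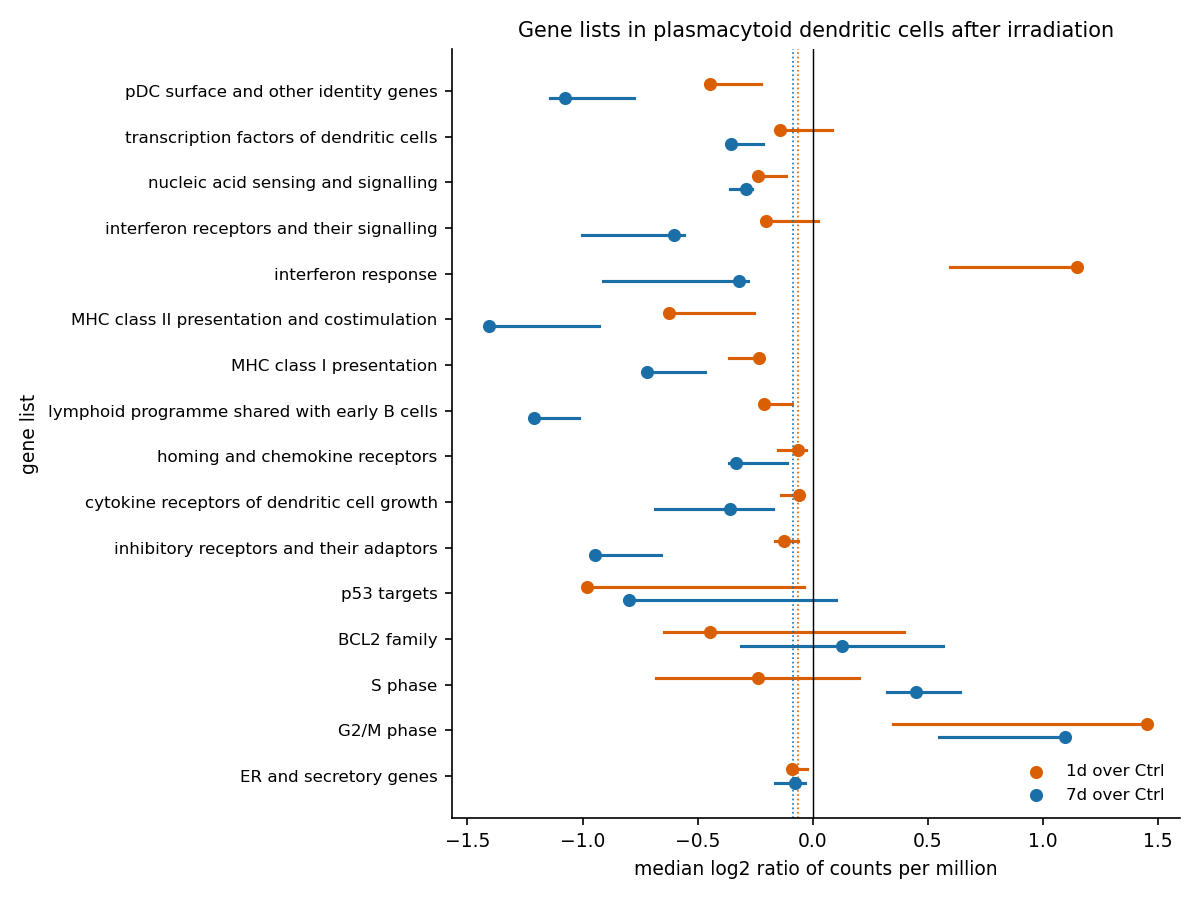
Median log2 ratio to Ctrl (x axis) of 16 gene lists (y axis) in plasmacytoid dendritic cells at 1d and 7d; points are the main values and bars span them and the values without mixed members, without members over 12000 UMIs and as means of per-cell CPM, and dotted lines mark the medians of all genes. Identity genes stood at -0.45 and -1.08, MHC class II genes at -0.62 and -1.41, and interferon response genes at 1.15 and -0.32.

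Antigen presentation genes were lower after irradiation. Of the MHC class II and costimulation list, 7 of 8 were below Ctrl at 1d and 7 of 7 at 7d, with medians of -0.62 and -1.41, and 8 of 9 (88.9%) were ordered Ctrl, 1d, 7d. Cd74 was at 2428, 1278 and 829 CPM (7d ratio 0.341, 0.302 to 0.385). The class II chains H2-Aa, H2-Ab1 and H2-Eb1 were at 913, 428 and 314, at 588, 244 and 222, and at 447, 171 and 147 CPM. After thinning, H2-Ab1 was detected in 48.3%, 21.2% and 21.7% of members. In conventional dendritic cells, which these genes helped to choose, Cd74 was at 15979, 16637 and 19275 CPM and was not lower in 1d or 7d. In B cells Cd74 was at 11423, 8704 and 9572 CPM and H2-Ab1 at 3315, 2017 and 2552 CPM. In all kept cells Cd74 was at 2396, 1017 and 1026 CPM and H2-Ab1 at 829, 306 and 361 CPM, sums that also follow the mix of cells. By the B cell values, lower levels after irradiation were not limited to members. Without the mixed members the 1d median was -0.26 over 4 genes measured. Class I genes were lower at 7d in 12 of 13, with a median of -0.72. H2-K1 was at 1760.1, 921 and 901 CPM, H2-D1 at 1751, 1204 and 854 CPM and beta-2 microglobulin (B2m) at 2414, 1691 and 1438 CPM. H2-Q7 was lowest relative to Ctrl, at 376, 159 and 72.5 CPM. Reads of these class I genes can be split among near-identical copies, so single values are uncertain.

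The lymphoid programme was near Ctrl at 1d and lower at 7d. The median of 10 genes was -0.21 at 1d and -1.21 at 7d, with 10 of 10 below Ctrl and 6 at least 2-fold lower. Dntt was at 193, 192 and 87.3 CPM (7d ratio 0.453, 0.299 to 0.691), and 55.2%, 54.1% and 27.5% of members held a UMI of it. Il7r was at 325, 245 and 135 CPM, Fcrla at 113, 74.3 and 41.4 CPM, Blk at 84.7, 50.9 and 29.6 CPM and the light chain gene Iglc3 at 104, 97.8 and 28.1 CPM. Ighm was at 1369.5, 1412 and 1243 CPM, nearest to Ctrl.

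Homing receptors apart from Ccr9 were mixed, with a list median of -0.33 at 7d. The monocyte and precursor receptor Ccr2 was at 207, 96.5 and 57.7 CPM, although 1 Ctrl cell held 36% of its UMIs there. The marrow-retention receptor Cxcr4 (278, 361 and 330.01 CPM) had intervals that held 1 at both times. Selplg, the selectin ligand, was at 800.05, 711 and 595 CPM. Flt3, the receptor for the growth factor of dendritic cells, was at 179, 253 and 260.5 CPM, with a 7d ratio of 1.46 (1.02 to 2.13).

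Inhibitory receptors and their adaptors were lower at 7d in 10 of 12 measured genes, with a median of -0.95, while at 1d the median was -0.13. The adaptor Tyrobp (DAP12), through which Siglech signals, was at 2546, 2393 and 1231 CPM (7d ratio 0.484, 0.433 to 0.540). Lair1 was at 320.02, 256 and 118 CPM, the phosphatase Ptpn6 at 259, 256 and 141 CPM, and the adaptor Fcer1g at 805, 972 and 545 CPM.

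Summed over members, genes of the p53 pathway were mostly below Ctrl in the irradiated libraries. Of 10 measured at 1d, 9 were below Ctrl, with a median of -0.98, and at 7d 11 of 11 were below it, with a median of -0.80. Cdkn1a, which arrests the cell cycle, was at 499, 123 and 358 CPM, and 1 Ctrl cell held 32% of its Ctrl UMIs. Before thinning, 37.9%, 29.4% and 65.2% of members held a Cdkn1a UMI. Such shares also follow depth, and the median depth of members was highest in 7d. The 7d ratio of Cdkn1a lay above 1 under some of the alternatives given below. The p53 antagonist Mdm2 was at 174, 69.1 and 100.6 CPM and the death effector Bax at 212, 79.6 and 87.3 CPM. Without the 3, 11 and 16 members over 12000 UMIs the list medians were -0.04 and 0.10, so the list's lower level did not hold without them. Among genes of the BCL2 family, Bcl2l11 (BIM), which promotes cell death, was at 344, 355 and 740 CPM, with a 7d ratio of 2.15 (1.68 to 2.79). In conventional dendritic cells Bcl2l11 was at 366, 305 and 303 CPM and in B cells at 359.9, 216 and 304 CPM. The pro-death Bid was at 75.3, 31.3 and 16.3 CPM, and the survival factor Mcl1 at 598, 689 and 654 CPM, with intervals that held 1.

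Cycling members were few in Ctrl. With at least 2 of 6 cycling genes after thinning to 1500 UMIs, they were 1 of 29 members (3.45%, 0.087 to 17.8%), 9 of 85 (10.6%, 4.96 to 19.2%) and 14 of 69 (20.3%, 11.6 to 31.7%); without thinning they were 3, 18 and 23. Among members that were not mixed they were 1, 7 and 11. G2/M genes were above Ctrl in 17 of 17 measured at 1d and 12 of 12 at 7d, against 47.5% and 47.6% of all genes. Their medians were 1.45 and 1.09, and 0.49 and 0.55 without the mixed members. Genes near 0 in Ctrl reached the minimum of 30 UMIs only where the other library was high, so these counts were partly fixed beforehand. The proliferation marker Mki67 was at 70.6, 166 and 147 CPM (1d ratio 2.35, 1.37 to 4.32), and 1 Ctrl cell held 53% of its Ctrl UMIs. The cyclin gene Ccnb2 had 1, 42 and 28 UMIs. S phase genes were above Ctrl in 6 of 16 at 1d and in 15 of 17 at 7d, with medians of -0.24 and 0.45, against 47.6% of all genes above Ctrl at 7d.

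Members with and without a Ccr9 UMI were compared within libraries. There were 27 and 2 such members in Ctrl, 73 and 12 in 1d, and 53 and 16 in 7d. Of 2946 genes tested, 57 were higher in members with Ccr9 and 19 lower (1.93% and 0.645%; edgeR), but S100a8 and S100a9, neutrophil genes carried by mixed members, led the list. Without the mixed members 17 were higher and 3 lower. Those higher without mixed members included H2-Eb1 at 4.20, H2-Aa at 4.21 and H2-Ab1 at 3.16, Spib at 2.94, Cd74 at 2.31 and Cox6a2 at 2.20 on the log2 scale (edgeR adjusted p between 0.020 and 0.031). The heat shock genes Hspa1a and Hspa1b were lower, at -1.99 and -1.75, near-identical genes whose reads can be split. With all members, the monocyte and macrophage receptor gene Csf1r was lower at -2.63 and the monocyte gene Ms4a6c at -1.87 (edgeR adjusted p = 0.038 and 0.029), and without the mixed members at -2.70 and -1.82 (edgeR adjusted p = 0.065 and 0.055). Csf1r was held by 7.41%, 6.85% and 9.43% of members with Ccr9 and by 100%, 41.7% and 50% of those without. The part of these myeloid genes in the contrast was not tested. The members without Ccr9 were few and spread unevenly over libraries, and leaving out 1d gave 17 higher and 4 lower genes, against 76 and 49 without Ctrl.

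Over all genes, those furthest above Ctrl at 1d, ranked by the interval's lower end, were Hsp90aa1, Crip1, Rassf5, Ifi203, Hspa8 and the mitotic genes Cenpe, Cdca3 and Knstrn. The chaperone Hsp90aa1 was at 2160.1, 4969 and 2723 CPM, 1 Ctrl cell held 35% of its UMIs there, and it was also higher in conventional dendritic cells (932, 4498 and 2233 CPM). Rassf5, which activates integrins, was at 37.6, 137 and 154 CPM, and the interferon-inducible Ifi203 at 80.0, 243 and 42.9 CPM. Knstrn had 0, 33 and 24 UMIs. Those furthest below Ctrl at 1d were Ly6a, Exoc4, Glcci1, Ifi27l2a, Mdn1, H2-Q7, Slc6a6 and Fyn. The taurine transporter Slc6a6 was at 405, 173 and 185 CPM. The kinase gene Fyn was at 725, 344 and 309 CPM and was also lower in conventional dendritic cells (473, 279.9 and 199.5 CPM) and B cells (396, 192 and 248 CPM).

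At 7d the gene furthest above Ctrl was F2r, the thrombin receptor PAR1, at chr13:95601803-95618487 in GRCm38. It had 3, 18 and 192 UMIs, or 14.1, 23.5 and 284 CPM, with a 7d ratio of 20.1 (6.78 to 98.4), and 6.90%, 15.3% and 75.4% of members held a UMI of it. F2r was at 14.6, 38.3 and 25.6 CPM in conventional dendritic cells and at 10.9, 2.23 and 23.4 CPM in B cells. Kcnn4, a calcium-activated potassium channel, was at 56.5, 74.3 and 477 CPM (7d ratio 8.44, 4.76 to 16.5), and also higher in conventional dendritic cells (122, 151 and 330.2 CPM). The calcium-responsive factor Nfatc1 was at 14.1, 58.7 and 141 CPM, and Arl4c, a small GTPase, at 94.1, 102 and 451 CPM. Klf10, a TGF-beta-inducible factor, was at 42.4, 37.8 and 219 CPM, and was also higher in the other classes, with 7d ratios of 6.15 in conventional dendritic cells and 6.80 in B cells. Gse1 was at 23.5, 45.6 and 189 CPM, Fam129b at 56.5, 48.3 and 274 CPM, and Endod1 had 0, 5 and 34 UMIs. Several of these were also higher at 7d in other classes: Gse1 by 7.51 times in conventional dendritic cells and 2.68 times in B cells, Fam129b by 2.07 and 4.71 times, and Nfatc1 by 4.05 and 1.35 times. Arl4c was 1.10 and 1.85 times its Ctrl level there. Differences between classes were not tested for these genes.

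The genes furthest below Ctrl at 7d were Ly6a, Ifi27l2a, H2-Q7 and Rnase6, described above, with Lgals3bp, Kdr, Fam174a and Cttnbp2nl. Lgals3bp, a secreted glycoprotein, had 15, 26 and 1 UMIs, with a 7d ratio of 0.021 (0.000498 to 0.136). Kdr, the vascular endothelial growth factor receptor, had 10, 38 and 1 UMIs, with a 7d ratio of 0.0314 (0.000725 to 0.221), and 20.7%, 18.8% and 1.45% of members held a UMI of it. Fam174a was at 184, 93.9 and 28.1 CPM and Cttnbp2nl had 10, 21 and 2 UMIs. The 7d members thus had little of these 4 genes, each on few UMIs.

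**Figure D5:**
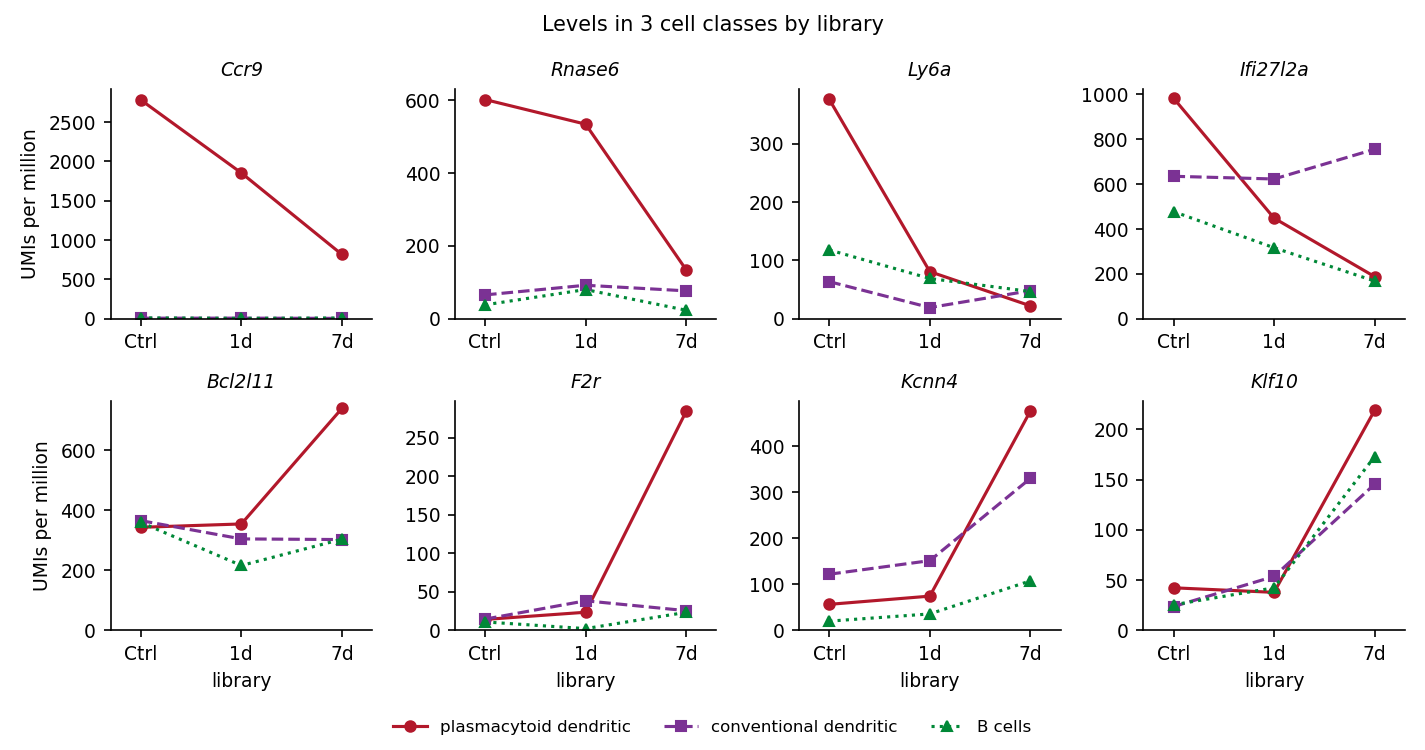
Levels in CPM (y axes, from 0) of 8 genes by library (x axis) in plasmacytoid dendritic cells, conventional dendritic cells and B cells. Ccr9 was at 2781, 1853 and 817 CPM in plasmacytoid dendritic cells, F2r at 14.1, 23.5 and 284 CPM, and Klf10 was highest at 7d in all 3 classes.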

How the data were processed

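The values were counts of UMIs per gene and cell, as the authors deposited them and per the file headers. Libraries were 10x 3' chemistry, per the labels' protocols. CASAVA 1.8, Cell Ranger, Seurat and mm10 are named in the submitters' processing notes, and Cell Ranger 6.1.1 in the file headers. The sources used here do not give the annotation release or the cell-calling rule.

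Members, gene lists and comparisons were chosen with earlier results of these data known. Nothing shown here is independent support for them. Kept cells had at least 500 UMIs, 250 genes and at most 15% mitochondrially encoded UMIs. Members were summed per library and ratios of CPM carried exact binomial 95% intervals, for genes with at least 30 UMIs over both libraries. Classes were summed per library and compared with edgeR 4.0.16 (quasi-likelihood, TMM, filterByExpr, library as a block) in R 4.3.3, with DESeq2 1.42.0 as an alternative. Doublets were called with Scrublet in scanpy 1.11.5. In 1d and 7d its automatic threshold called under 0.5% of cells, so the highest scores were called at 0.8% per 1000 cells. Thinned values used 1500 UMIs per cell for shares and 1000 for ratios and classes, and cells with fewer UMIs were left out. The tests were checked on simulated counts.

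Genes named were a fixed panel, the extremes and most abundant members of each list, and up to 8 genes per side ranked by how far the interval lay from 1. For these, 10% or more of members had to hold the gene in the higher library, with no cell over 20% of its UMIs there. For classes, up to 12 or 8 genes per side with the largest fold change were named. Alternatives were TMM factors, higher and no count minimums, thinning, doublets removed, other Siglech limits, a stricter filter, another denominator, no block and leaving out each library. Chosen after seeing the data were leaving out mixed members or members over 12000 UMIs, the mean of per-cell CPM, and counting per conventional dendritic cell. Some results are not reported here.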

Additional observations from a re-analysis of the deposited data

How the results depend on the processing

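No paired analysis was possible because, between groups, each had 1 library and the replicate numbers are all 1. The class and Ccr9 contrasts paired cells within a library. With 29 Ctrl members, genes under 30 UMIs over both libraries were not compared, and ratios in thinned cells rest on few UMIs. Other limits, filters, doublet removal, thinning and another denominator put the 1d share ratio at 4.51 to 5.20 and the 7d ratio at 2.36 to 3.15. Of 61 alternative values of the shares and counts, 42 held, and the others follow, where the cause was not tested unless fewer genes or cells were compared. Per conventional dendritic cell the share ratios were 3.05 at 1d and 0.858 at 7d, which turned the direction. Genes past 2-fold were 81 at 1d and 193 at 7d with a minimum of 100 UMIs, 56 and 87 after thinning, and 472 at 7d without members over 12000 UMIs. Calls against conventional dendritic cells numbered 766 by DESeq2 and 289 after thinning, with fewer genes tested, and 714 to 1321 when 1 library was left out. Calls for members against B cells numbered 772 by DESeq2 and 393 after thinning. Calls between members with and without Ccr9 numbered 345 with no count filter, 49 with no replicate block, 39 after thinning, 20 without mixed members and 21 to 125 when 1 library was left out. Where a list median was at least 0.5 from 0, 5 of 115 alternative values turned direction, and where it was nearer to 0, 29 of 241 did. The 5 were, after thinning, interferon response at 1d (-0.0139, 3 genes), p53 targets at 1d (0.50, 1 gene), the lymphoid programme at 7d (0.0438, 3 genes) and NF-kB genes at 7d (0.0638, 4 genes), and without members over 12000 UMIs p53 targets at 7d (0.10). Among ratios of named genes whose interval left out 1, 10 turned direction. Thinning put Selplg at 1.501, Ptpn6 at 1.09, Cdkn1a at 1.40 and Tnfrsf1b at 0.630 at 7d, and Fcer1g at 0.969 at 1d. Fcer1g at 1d was also 0.977 with at least 5 Siglech UMIs and 0.953 without members over 12000 UMIs. Without the latter Cdkn1a was 1.08 at 7d and Hspa5 1.09 at 1d, and as a mean of per-cell CPM Cdkn1a was 1.16 at 7d. In class contrasts of named genes 437 of 470 alternative values kept direction and call, and the other 33 kept direction only.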

Other observations

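Gene groups not described above lay on both sides of Ctrl in plasmacytoid dendritic cells. Among genes of the endoplasmic reticulum and secretion the list medians were -0.09 at 1d and -0.08 at 7d, against -0.07 and -0.08 for all genes, and TMM scaling turned both above 0. Within it the chaperone Hspa5 stood at 819, 648 and 1276 CPM in Ctrl, 1d and 7d, and Edem1, which marks misfolded glycoproteins for disposal, at 80.0, 104 and 188 CPM (7d ratio 2.35, 1.41 to 4.16). Herpud1, another gene of that disposal pathway, was at 744, 430 and 363 CPM, and the signal peptidase subunit Sec11c at 452, 423 and 241 CPM. Xbp1 was at 678, 561 and 660 CPM, with intervals that held 1 at both times. Genes of 1 secretory programme were thus above and below Ctrl at 7d.

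Immediate early genes, which tissue dissociation also induces, were above Ctrl in 19 of 29 measured at 1d and 16 of 29 at 7d, with medians of 0.45 and 0.20, against 47.5% and 47.6% of all genes above Ctrl. Jun was at 292, 720 and 650 CPM, Fosb at 198, 146 and 497 CPM and Dusp1 at 136, 104 and 289 CPM, and 1 Ctrl cell held 43% of the Ctrl UMIs of Fosb. The part of tissue handling in these values was not tested. Txnip, which responds to glucose and glucocorticoids, was at 75.3, 88.7 and 184 CPM (7d ratio 2.44, 1.44 to 4.40). The tumour necrosis factor receptor gene Tnfrsf1b was at 47.1, 60.0 and 105 CPM.

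Inflammatory transcripts lay in few members. Ccl5, a chemokine for T cells, had 2, 4 and 115 UMIs in Ctrl, 1d and 7d, and in 7d 7.25% of members held any, with 1 cell at 40% of them. With called doublets removed 31 Ccl5 UMIs remained in 7d. Ptgs2, the inducible prostaglandin synthase, had 66, 3 and 8 UMIs, and 1 Ctrl cell held 95% of the 66. The interleukin 12 subunit gene Il12a was at 61.2, 52.2 and 63.6 CPM, and Il12b had no UMI in any library. These genes were chosen after their values were seen.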
